A study of Allium mongolicum with 12 samples.

Results

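Roots of Allium mongolicum, a wild onion of dry steppe, were compared after 72 h in a mixed saline-alkali solution (T72) and at 0 h, before exposure (CK), across the 20400 assembled transcript features that reached a mean of 5 CPM over these 6 libraries, where CPM is the count after all libraries are brought to an equal total. These are 20.7% of the 98328 features in the deposited table, and they held 92.6% to 94.2% of the counts of each library. The stress solution mixed 1 part NaCl, 9 parts Na2SO4, 9 parts NaHCO3 and 1 part Na2CO3 at a total salinity of 150 mmol/L. All seedlings, controls included, had been germinated in the dark for 7 days, grown in substrate soil for 45 days at 25 °C with 12 h of light, and kept in half-strength Hoagland solution for 7 days. Each group has 3 libraries drawn from 20 seedlings. How the seedlings were divided among libraries is not stated, so the p-values reflect variation from library to library, part or all of which may be technical. No unstressed roots of 72 h are in the series, so stress and elapsed time cannot be told apart. The series also holds libraries of 24 h (T24) and 48 h (T48), used here only for levels beside the comparison.

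A mixed saline-alkali solution exposes roots to sodium, to low water potential and to high pH together. Plant roots are known to meet such conditions by moving sodium out of the cytosol or into the vacuole, by accumulating compatible solutes, by releasing protons and organic acids, and by altering their cell walls. The phenylpropanoid pathway named in the series title supplies lignin and flavonoids. The features carry assembly IDs without gene names, so none could be placed in these pathways, and the labelled tissue could not be checked against root markers. A bulk root sample also cannot separate fewer cells of a type from less RNA per cell.

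Library totals ran from 23099287 to 25784662 counts. After TMM scaling, used for most CPM values of single libraries, 3 counts correspond to 0.113 to 0.139 CPM. Libraries of the same group were closer to each other than to the other group. Between pairs of CK libraries the median absolute difference per feature was 0.28 to 0.33 on the log2 scale, between pairs of T72 libraries 0.20 to 0.22, and between a CK and a T72 library 0.37 to 0.49. The CK libraries therefore differed more among themselves than the T72 libraries did, a contrast that was not tested. The biological coefficient of variation over these features, the spread beyond counting noise, was 36.9% in CK and 26.7% in T72. On the first principal component, with 51.2% of the variance, CK libraries lay between -70.5 and -45.1 and T72 libraries between 42 and 65.5. The second component, with 20% of the variance, spread the CK libraries from -55.9 to 61 and the T72 libraries only from -16.3 to 6.1.

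**Figure D1:**
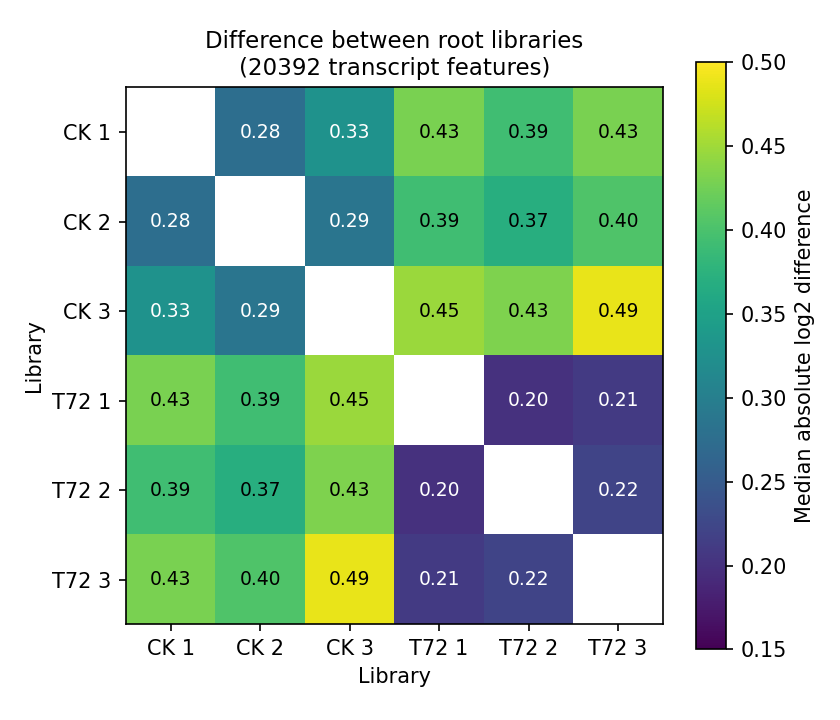
Each cell gives the median absolute log2 difference in CPM between a pair of libraries over the 20392 features tested, with CK (0 h) and T72 (72 h) replicates on both axes. The T72 pairs have the smallest differences (0.20 to 0.22) and the pairs of CK replicate 3 with T72 libraries the largest (0.43 to 0.49).

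After 72 h, 580 of these features had risen and 1308 had fallen relative to the controls (edgeR quasi-likelihood test with Benjamini-Hochberg adjustment over all 59168 features tested in the table, adjusted p below 0.05). That is 2.84% and 6.41% of the 20392 that entered the test. Of all 59168 features, 1.26% were called higher and 2.47% lower, 3.73% in all, and among tested features below 5 CPM 0.818% were called. The share called is thus higher at 5 CPM and above than below it, in a test that detects changes more easily at high counts. The rises had a median log2 change of 1.35 and the falls one of -1.44. Of the rises 445 were at least 2-fold, 110 at least 4-fold and 19 at least 8-fold. Of the falls 1009 were at least 2-fold, 306 at least 4-fold and 68 at least 8-fold.

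The balance of rises and falls depended on how libraries were scaled. TMM scaling put the median log2 change of the 20392 features at -0.06, and rises made up 30.7% of the calls. When library totals alone set the scale, the median was 0.08, and 880 features were higher and 976 lower, so rises made up 47.4% of the calls. The number of calls also rested on single libraries. Leaving out T72 replicate 1 reduced it to 10, T72 replicate 3 to 151 and T72 replicate 2 to 752. Leaving out CK replicate 2 gave 645, CK replicate 3 gave 1010 and CK replicate 1 gave 1261. A fit of 5 libraries also has fewer degrees of freedom. The size of the changes moved little: over these 6 fits the median log2 change of the 580 rises was 1.28 to 1.41 and that of the 1308 falls -1.53 to -1.41. All 1888 features had an unadjusted edgeR p below 0.05 in each of the 6 fits, which share libraries with the fit that chose them.

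Falls led most clearly among transcripts of 20 to 1000 CPM. At 20 to 100 CPM, 726 of 7922 features fell and 251 rose. At 100 to 1000 CPM, 271 of 1876 fell (14.4%) and 67 rose (3.57%). At 1000 CPM or more the counts were even, with 3 rises and 3 falls among 43 features. At 5 to 20 CPM the counts were closer than at 20 to 1000 CPM, with 308 falls and 259 rises among 10551. With scaling by library totals alone this lowest class turned to 228 falls and 380 rises, and it also turned with all 12 libraries in the fit (455 falls and 503 rises) and when the fit was limited to features of at least 5 CPM (515 falls and 697 rises). Under library totals falls still led at 20 to 100 CPM (528 against 405) and at 100 to 1000 CPM (218 against 92). Median changes of the called features were larger in the lowest class, 1.56 for rises and -1.77 for falls, than at 20 to 100 CPM, 1.16 and -1.29. The 95% interval of a feature's log2 change had a median half-width of 0.66 at 5 to 20 CPM and 0.38 at 20 to 100 CPM. At 100 to 1000 CPM the half-width was 0.39, and the medians of the called features were 1.15 and -1.45. Whether interval width bears on the size of the called changes was not tested.

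**Figure D2:**
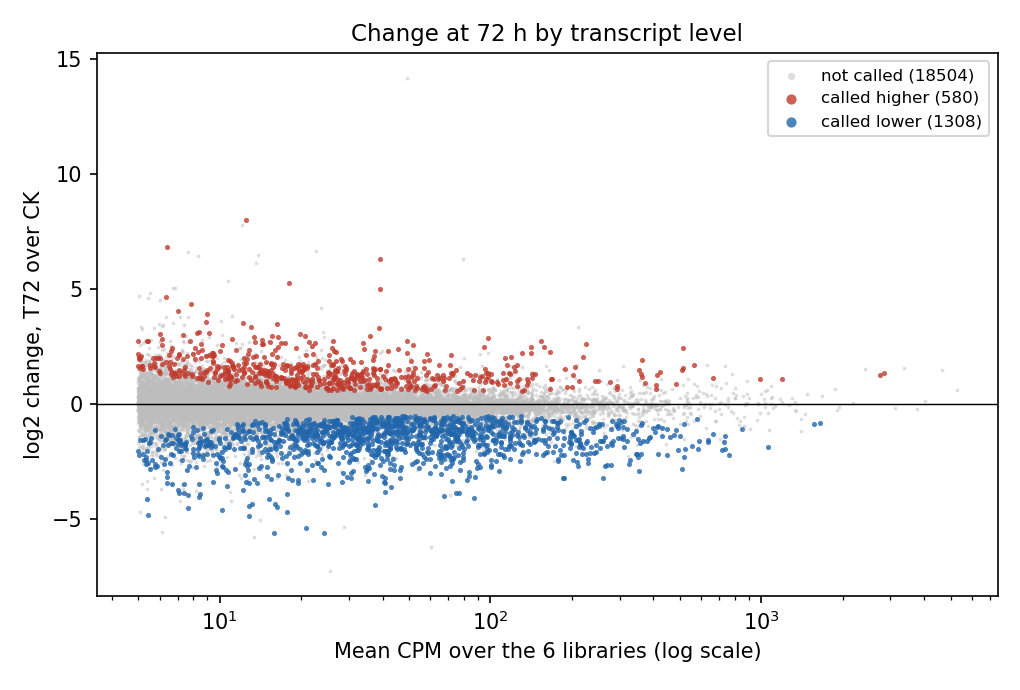
Each point is 1 of the 20392 features tested, with its mean CPM over the 6 libraries on a log axis and its fitted log2 change at 72 h over CK. Called falls (1308) outnumber called rises (580) most clearly between 20 and 1000 CPM, and the widest changes lie at low level.

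**Figure D3:**
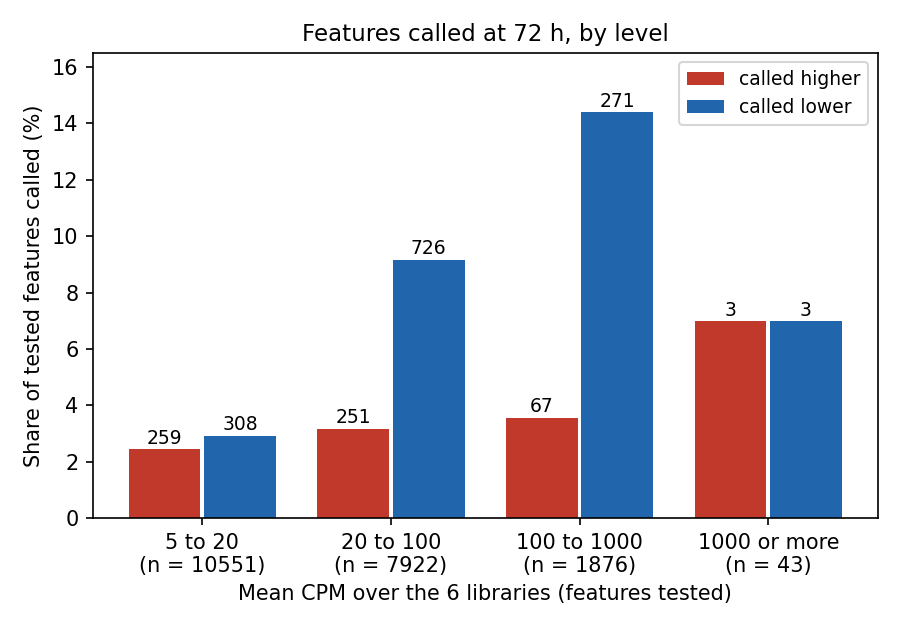
Bars give the percentage of tested features called higher or lower at 72 h in 4 classes of mean CPM, with the number of features above each bar. The share called lower goes from 2.92% at 5 to 20 CPM to 14.4% at 100 to 1000 CPM, and the share called higher from 2.45% to 3.57%, while at 1000 CPM or more both are 6.98% (3 features each); scaled by library totals alone, with all 12 libraries in the fit or with only features at 5 CPM or more in it, rises lead in the lowest class.

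The features that fell had made up a sizeable part of the control root transcriptome. Together the 1308 held 14.22%, 15.42% and 15.13% of the counts of the CK libraries and 5.74%, 6.68% and 5.71% of those of the T72 libraries. The 580 that rose held 2.14%, 1.9% and 1.81% in CK and 5.34%, 4.93% and 5.42% in T72. These sets were chosen by the same comparison, so the shares describe their weight and are not a test. Regardless of call, the 100 most abundant features took 11.09% ± 0.35 (SD, n = 3) of the CK libraries and 13.16% ± 0.59 (n = 3) of the T72 libraries. All 3 T72 libraries, at 12.68% to 13.82%, lay above all 3 CK libraries, at 10.82% to 11.49%. The exact two-sided permutation test gave p = 0.1, the smallest that 3 against 3 allows. Of the gain of 2.06 percentage points, more than 1 came from 4 features that follow one profile across libraries and were not called, described below with the most abundant features. Without them the other 96 took 10.55% ± 0.3 of the CK libraries and 11.46% ± 0.3 of the T72 libraries (SD, n = 3 each; exact p = 0.1), a gain of 0.9 percentage points, in a calculation added after the data were seen. For the 20 most abundant the shares were 4.17% ± 0.37 and 5.98% ± 0.7 (SD, n = 3 each; exact p = 0.1).

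The limit of 5 CPM is a mean over both groups, so a feature can meet it through 1 group alone. That was so for 811 features through CK, of which 164 were called lower, and for 1290 through T72, of which 135 were called higher. Those features had to lean to the group that carried them. Among the 18291 that reached 5 CPM in both groups, 1144 were lower and 445 higher. Just inside the limit stood a feature with 17.12, 0.9 and 0.07 CPM in CK and 0, 9.58 and 2.33 in T72, and just outside it one with 6.99, 3.82 and 2.7 CPM in CK and 6.35, 5.74 and 4.4 in T72. The 8 features that did not enter the test had a mean of 5.26 to 6.75 CPM, and reached 1 CPM in no more than 2 libraries.

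Most features were not called, and for many of them the data bound the change. For 10889 of the 20392 (53.4%), called or not, the 95% interval of the log2 change lay wholly within 2-fold in either direction. At 20 to 100 CPM this held for 67.2%, and at 5 to 20 CPM for 42%. Missing the threshold does not show that a feature is unchanged, and an interval within 2-fold still leaves room for smaller changes. The CPM values of the groups did not overlap for 3505 features with T72 above CK (17.2%) and 4829 with T72 below (23.7%), against 15.3% and 13.1% of all features tested. All 1888 called features were among them. Of the features whose groups were apart without a call, 2925 were higher at 72 h, with a median absolute log2 change of 0.59, and 3521 were lower, with one of 0.53.

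By the limits given next, no feature went between near absence and abundance in every library. There were 0 features with at most 3 counts in each CK library and at least 50 in each T72 library, and 0 of the converse kind. Large called changes do occur outside these limits. TRINITY_DN19252_c0_g2_i1_4, singled out after its values were seen, had a mean of 6.39 CPM and a log2 change of 6.815 ± 1.317 (SE; edgeR adjusted p = 0.043). A single feature had no count in any CK library, which allows up to 0.139 CPM in a CK library. It stood at 284 CPM in T72 replicate 3 but at 0.715 and 0.492 CPM in replicates 1 and 2, and it was not called (edgeR adjusted p = 0.23). It was singled out after its values were seen.

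The largest rise among called features with at least 10 counts in every library was that of TRINITY_DN38984_c0_g1_i3_3. It stood at 1.49, 3.24 and 2.06 CPM in CK and at 164, 24.7 and 31.3 CPM in T72. The groups did not overlap, but T72 replicate 1 was several times higher than the other T72 libraries. The fitted log2 change was 5 ± 0.87 (SE), and its 95% interval ran from 2.94 to 7.07 (edgeR adjusted p = 0.032). Without T72 replicate 1 the change was 3.61 and the adjusted p 0.054, and adjusted p was also above the threshold without any one CK library (0.09 to 0.11) or without T72 replicate 3 (0.082). Over 19 alternatives the adjusted p ran from 1.9e-10 to 0.21. At 24 h and 48 h the feature stayed low, at 3.29 to 3.61 and 2.07 to 4.7 CPM.

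The most abundant feature among those called with a rise of at least 2-fold was TRINITY_DN39066_c0_g1_i3_1, the seventh by mean level over the 6 libraries. Its CK libraries held 1800, 1620 and 1330 CPM and its T72 libraries 4130, 3940 and 4140 CPM. The groups lay far apart and the T72 values close together, at 1590 ± 236 against 4070 ± 112 CPM (SD, n = 3 each). The log2 change was 1.35 ± 0.15 (SE), or 2.56-fold (edgeR adjusted p = 0.011). Leaving out T72 replicate 1 or 3 left the change at 1.34 or 1.32 and the adjusted p at 0.061 or 0.062, within a range of 1.8e-14 to 0.31 over the alternatives. The 0.31 came from the setting with a minimum log2 change of 1, which tests for a change beyond 2-fold. The highest of the other settings was 0.062. The 24 h and 48 h libraries lay between the groups, at 2290 to 2780 and 2200 to 2870 CPM.

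The largest fall among called features with at least 10 counts in every library was that of TRINITY_DN37394_c0_g1_i1_2. It stood at 16, 21.4 and 62.5 CPM in CK and at 0.587, 0.964 and 0.483 CPM in T72. All T72 libraries were below 1 CPM and all CK libraries at 16 CPM or more. The log2 change was -5.61 ± 0.66 (SE), with an interval from -7.18 to -4.05 (edgeR adjusted p = 0.011). Without T72 replicate 1 or 3 the change was -5.51 or -5.44 and the adjusted p 0.083 or 0.077, within a range of 1.3e-18 to 0.17 over the alternatives. At 24 h it was at 3.01 to 4.96 CPM. At 48 h replicates 1 and 3 were at 0.771 and 0.253 CPM and replicate 2 at 71.6 CPM, above every CK library.

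The most abundant feature among those called with a fall of at least 2-fold was TRINITY_DN31914_c0_g1_i1_1. Its CK libraries held 1810, 1920 and 1500 CPM and its T72 libraries 377, 620 and 445 CPM. The lowest CK library was thus well above the highest T72 library. The log2 change was -1.87 ± 0.22 (SE), or 3.64-fold lower (edgeR adjusted p = 0.011), and the change became -1.72 (adjusted p = 0.065) when T72 replicate 1 was left out and -1.83 (adjusted p = 0.072) when replicate 3 was. Its adjusted p ranged from 2e-12 to 0.11 over the alternatives, where 0.11 came from the test for a change beyond 2-fold. The highest of the other settings was 0.072. At 24 h it held 761 to 786 CPM, and at 48 h 1130 and 941 CPM in replicates 1 and 3 but 1680 CPM in replicate 2.

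**Figure D4:**
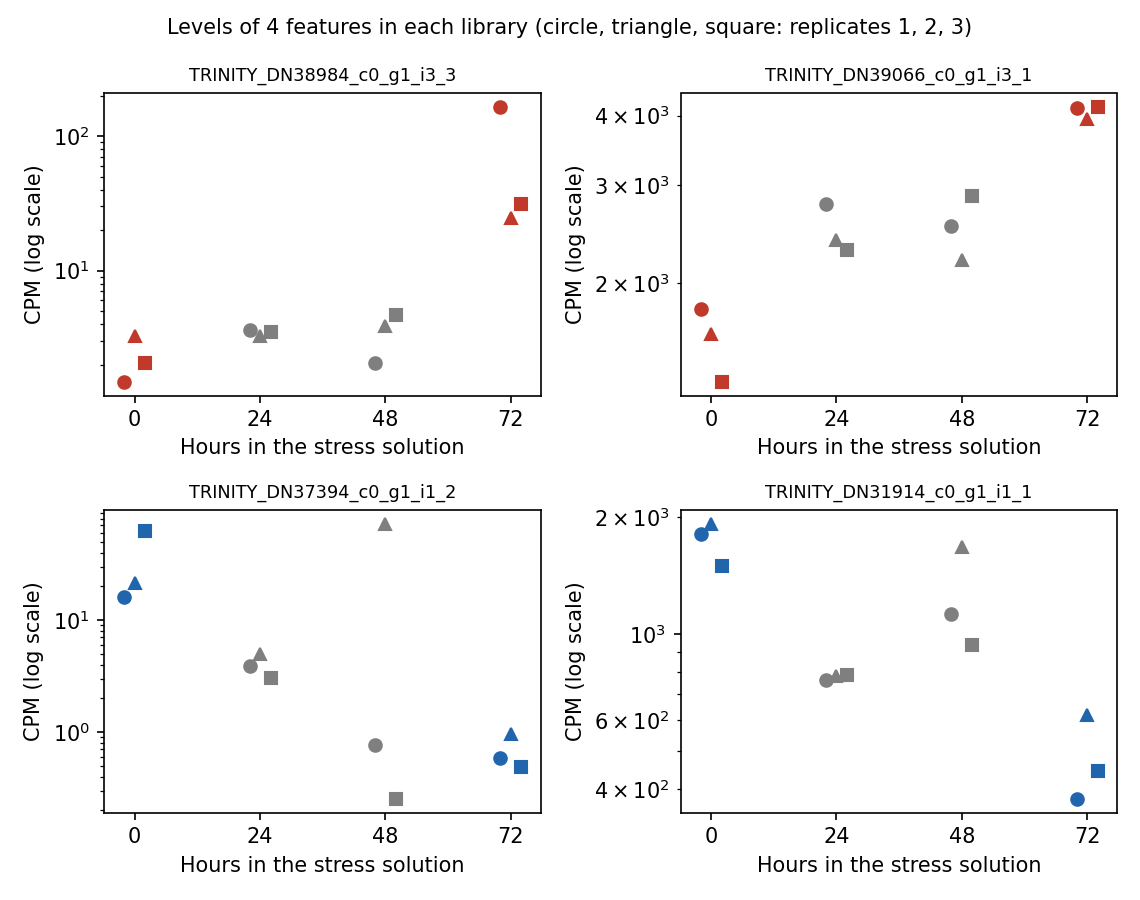
CPM of 4 features in each of the 12 libraries, on log axes, by hours in the stress solution; coloured symbols are the CK and T72 libraries compared, grey symbols the 24 h and 48 h libraries. In all 4 features the T72 libraries lie to one side of the CK libraries, and in both features that fell T48 replicate 2 lies near or above CK.

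Among the 43 features at 1000 CPM or more, 3 rose and 3 fell. The rises, by 1.35, 1.26 and 1.09 on the log2 scale, included TRINITY_DN39066_c0_g1_i3_1, and the second of them went from 1950, 1532 and 1360 CPM in CK to 4103, 4195 and 3321 CPM in T72. The third rise went from 874, 755 and 651 CPM to 1731, 1574 and 1581 CPM. Besides TRINITY_DN31914_c0_g1_i1_1, one fall went from 2392, 2225 and 1911 CPM to 1130, 1155 and 1434 CPM and the other from 2127, 2027 and 2120 CPM to 1089, 1241 and 1110 CPM. Their log2 changes were -0.82 and -0.87, both estimates of less than 2-fold (edgeR adjusted p = 0.044 and 0.017). The 95% intervals, from -1.2 to -0.44 and from -1.16 to -0.59, include a 2-fold fall. Of the 43, 23 had a 95% interval wholly within 2-fold. The sixth most abundant feature, for example, had a log2 change of -0.15 with an interval from -0.44 to 0.14.

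Several of the most abundant features varied widely between replicates and were not called. The second most abundant, TRINITY_DN38545_c0_g1_i7_3, which was singled out after its values were seen, stood at 3950, 750 and 2642 CPM in CK and at 5051, 10873 and 4825 CPM in T72. Its CK replicates alone spanned 5.27-fold, the widest CK span among the 43. The groups did not overlap, yet the log2 change of 1.49 ± 0.61 (SE) was not called (edgeR adjusted p = 0.24). In the 12 libraries of the series, 4 other features kept a near-constant ratio to it, with an SD of the log2 ratio of 0.059 to 0.118. They include the fifth and the ninth most abundant features, with log2 changes of 1.56 and 1.51. All 5 were lowest in CK replicate 2, and among the T72 libraries all 5 were highest in replicate 2. Together the 5 held 0.89%, 0.18% and 0.64% of the counts of the CK libraries and 1.28%, 2.83% and 1.28% of those of the T72 libraries, and 4 of them are among the 100 most abundant. They share this profile across libraries, and whether they are copies of 1 transcript was not tested.

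Features whose IDs share a DN number and a final suffix were put in 1 ID group, and may not be independent. The number after c in the ID was ignored, and IDs that differ in suffix were kept apart. The 20392 features fell into 19478 ID groups, and 854 of these held 2 or more features. In 30 ID groups 2 or more features were called. All called features fell in 24 of them and rose in 5, and 1 held both directions. Each feature ID ends in a suffix from 1 to 4 whose meaning is not given. Features with suffix 1 included 201 rises and 283 falls among 5455, those with suffix 2 included 89 and 336 among 4829, those with suffix 3 included 171 and 293 among 5060, and those with suffix 4 included 119 and 396 among 5048. The share called in either direction lay between 8.8% and 10.2% in all 4, while rises made up 41.5% of the calls for suffix 1 and 20.9% for suffix 2. The difference between suffixes was not tested.

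The features called at 72 h can be set beside their levels at the other times, which share the CK libraries with this comparison and are therefore given without a test. For the 580 rises, the median log2 difference from the CK mean was 0.89 at 24 h, 0.42 at 48 h and 1.32 at 72 h. For the 1308 falls it was -1.01, -0.52 and -1.39. At 48 h the value rested on which libraries entered. In T48 replicate 2 the medians were 0.1 and -0.02, near the CK libraries, which ran from -0.08 to 0.1 for the rises and from -0.04 to 0.04 for the falls. Without that library the 48 h medians were 0.6 and -0.75. At 72 h the 3 libraries lay at 1.29, 1.29 and 1.32 for the rises and -1.44, -1.22 and -1.5 for the falls. Both sets were chosen by the test on these CK and T72 libraries. Closeness within CK and within T72, and the largest medians at 72 h, can follow from that choice.

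**Figure D5:**
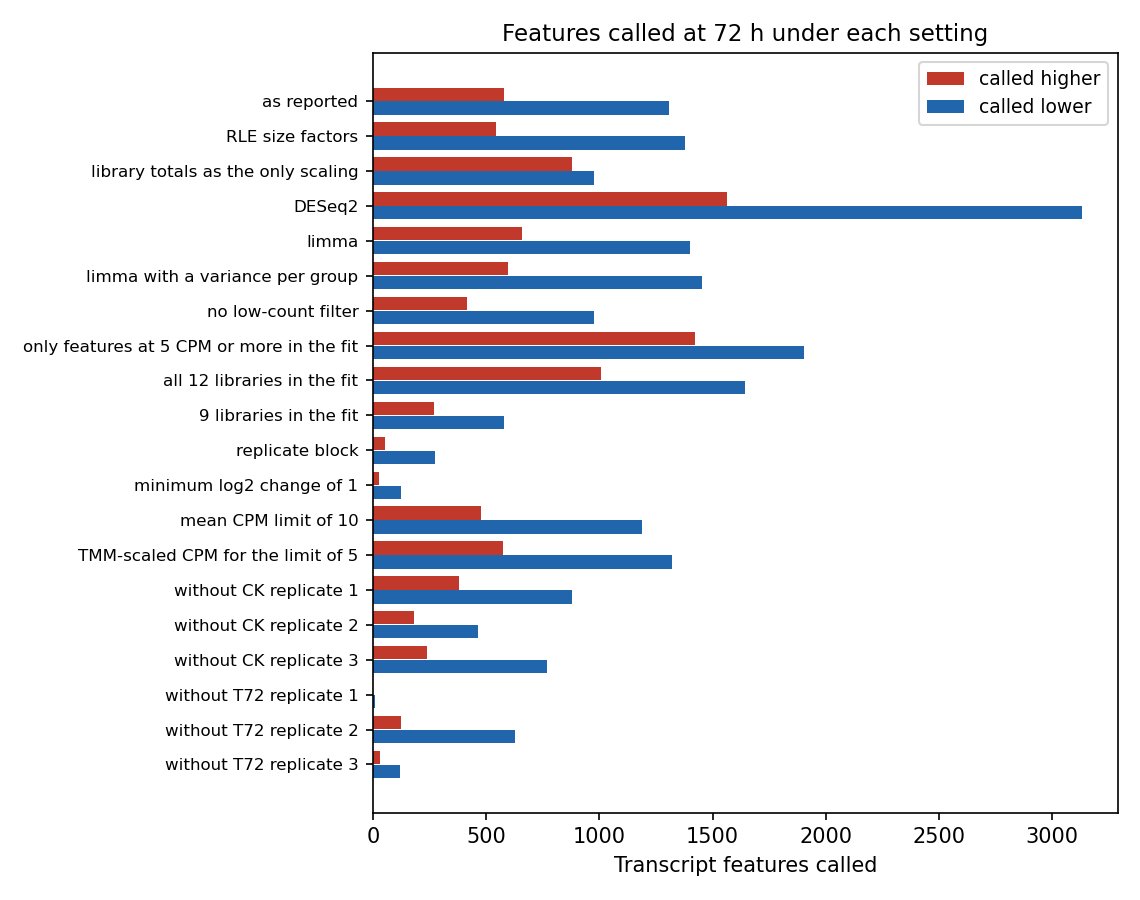
Bars give the number of features called higher and lower at 72 h in the fit as reported and under 19 other settings. Falls outnumber rises under all 19, by 976 to 880 when scaled by library totals alone, and the number called ranges from 10 without T72 replicate 1 to 4696 with DESeq2.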

How the data were processed

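The deposited table holds estimated counts per assembled feature, as the authors made them, with no normalisation visible in the values. Per the submitters' processing notes, Trimmomatic trimmed the reads. Apart from the prefix TRINITY of the feature IDs, the sources used here name no assembler, aligner or counter. Paired reads of 150 bp came from VAHTS Universal V6 libraries of TRIzol RNA, per the labels' protocols. Columns were matched to samples by title. Counts were rounded to whole numbers. Members have a mean of 5 CPM (count over column sum) or more over the 6 libraries. Level classes, group means against the limit and the features beside the limit use the same scale. CPM of single libraries elsewhere use TMM factors from all 12 libraries. edgeR 4.0.16 (R 4.3.3) was fitted to the CK and T72 libraries after filterByExpr, with a mean per group, 4 residual degrees of freedom and adjustment over 59168 features. Only the 2 groups compared entered, so that the spread of others did not bear on the test. The biological coefficient of variation was 8.2% at 24 h, far below theirs, and 36.7% at 48 h, close to that of CK. Fits with the 48 h libraries, and with all 12, are among the alternatives. The standard error is the log2 change over the square root of F. log2 of CPM used a prior of 0.5.

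Named features are, for each direction, the called one with the largest change and at least 10 counts in every library, and the most abundant one changed at least 2-fold, with groups apart. Members, lists and tests were chosen with earlier results of these data known. Alternatives were RLE factors, library totals, DESeq2 1.42.0, limma 3.58.1, other filters and limits, other sets of libraries, a replicate block, a minimum change and leaving out each library. limma with a variance per group, and the share of the 100 most abundant features without those of one profile, were added after seeing the data.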

Additional observations from a re-analysis of the deposited data

How the results depend on the processing

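Falls outnumbered rises under all 19 alternatives, and the number of features called (1888, with 580 higher and 1308 lower; at 100 CPM or more 70 and 274) moved by over 1.5 times under several. DESeq2 called 4696, 1565 higher and 3131 lower (139 and 474 at 100 CPM or more). Entering only features at 5 CPM or more gave 3324, 1421 higher and 1903 lower (127 higher at 100 CPM or more). That fit adjusts over fewer features and also rescales the libraries, with a median log2 change of 0. Library totals gave 880 higher, and all 12 libraries in the fit 1008 higher. Without the 24 h libraries, 9 libraries gave 851, 270 higher and 581 lower (41 and 150). A minimum log2 change of 1 gave 150, 25 higher and 125 lower (6 and 25). Leaving out each library in turn gave 10 to 1261 calls, 2 to 381 higher and 8 to 880 lower, and at 100 CPM or more 1 to 57 higher and 2 to 189 lower. The causes of these moves were not tested. RLE factors, both limma fits, no low-count filter, a limit of 10 CPM and TMM-scaled CPM for the limit moved no total by over 1.5 times (1392 to 2060 calls).

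Whether equal replicate numbers mark paired samples is not stated. Same-numbered CK and T72 libraries had correlations of deviations of -0.1, -0.004 and -0.168, which cannot settle it with 3 libraries per group. With a replicate block, which leaves fewer residual degrees of freedom, 327 features were called, 53 higher and 274 lower (9 and 84 at 100 CPM or more). The number with an interval within 2-fold (10889) stayed between 9162 and 11391 in the edgeR fits with the limit of 5 CPM, and was 9201 with a limit of 10 CPM. The 100 most abundant features gained 2.06 percentage points of the library total (exact p = 0.1). They gained 2.35 percentage points of the members' own total, the 20 most abundant gained 1.81, the gain was 0.9 without the features of one profile, and without each library in turn the gain was 1.73 to 2.3. Of the 4 named features none changed sign. Summing over isoforms was not run, since 0 features share a gene ID and suffix. At 3 counts, the floor lay at 0.113 to 0.139 CPM, far below the limit of 5 CPM.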
